A study of Mus musculus with 15 samples.

Results

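Prox1, Reln, Lyve1, Pdpn and Mmrn1 are 5 genes by which the lymphatic vessels of a tissue are commonly recognised, and their expression was followed here in the mouse heart after doxorubicin, with and without gene transfer of VEGF-B. Every probe whose platform symbol was 1 of these 5 genes was taken, which gave 11 of the 45281 probes on the array for 5 of its 19057 named genes. Prox1 had 2 probes, Reln 5, Lyve1 1, Pdpn 1 and Mmrn1 2. Of these 11, 7 lay above background on at least 5 of the 15 arrays and were tested, and all 5 genes kept at least 1 tested probe.

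Myocardium, the muscle of the heart, was taken from male C57Bl/6J mice aged 10 weeks, and total RNA from each sample was hybridised to an Illumina BeadChip array as biotin-labelled cRNA. In the VEGF-B+DOX group (n = 5) the mice had received AAV9-VEGF-B, a vector from adeno-associated virus with the gene of vascular endothelial growth factor B, 7 days before doxorubicin. In the DOX group (n = 5) doxorubicin, an anthracycline chemotherapy drug with cardiac toxicity, was injected alone, and in the PBS group (n = 5) buffer was injected in its place. All hearts were collected 20 hours after that injection. The labels name neither the promoter of the vector nor a group given an empty vector or VEGF-B without the drug, so effects of VEGF-B, of the vector and of their combination with the drug cannot be told apart here. The values are log2 intensities as the authors deposited them, quantile-normalized between arrays. A value of 6.80 is the mode of all values and marks the background, and a probe was counted as above background over 6.914. Background seems not to have been subtracted, so the folds below understate changes, most of all for dim probes. Probe intensity served to choose the brightest probe of a gene, and it was not read as a difference in expression between genes.

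Lymphatic vessels drain fluid, proteins and immune cells from the heart. Their endothelium is set apart from that of blood vessels by PROX1, the transcription factor that specifies and maintains lymphatic identity. In mouse embryos SOX18 and NR2F2 switch Prox1 on, and VEGF-C and VEGF-D, acting on the receptor FLT4 (VEGFR3), drive lymphatic growth, whereas VEGF-B binds FLT1 and the co-receptor NRP1 and is not a ligand of FLT4. RELN, or reelin, is a glycoprotein secreted by lymphatic endothelial cells and by neurons. LYVE1 is a receptor for hyaluronan on lymphatic capillaries, and a subset of tissue macrophages also carries it. PDPN, or podoplanin, is a mucin-like surface protein that binds the platelet receptor CLEC-2 and is also made by mesothelial cells and some fibroblasts. MMRN1, multimerin 1, is a secreted glycoprotein of lymphatic endothelium that platelets also store. Prox1 is not restricted to vessels in the heart, since cardiomyocytes express it as well.

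The promoters of Prox1, Reln and Mmrn1 are shown because the first pair were the members lower in VEGF-B+DOX than in DOX hearts and Mmrn1 varied together with Reln from array to array. Each runs 5′ to 3′ on the strand of its gene, from 250 bases before the annotated start to 50 bases after it, and was taken from RefSeq on GRCm38.p6. Of the 5 genes, 4 were matched to a promoter entry. Capitals mark matches, on either strand, to ACAAT (the core bound by SOX factors), AGATAA (bound by factors of the GATA family), AGGAAG (bound by ETS factors), AGGTCA (the half-site of nuclear receptors, the class of NR2F2), TATAAA (the TATA box) or GGGCGG (the GC box). The GC box was added to the search after the Reln sequence had been seen. The Prox1 entry farther upstream lies at chr1:190170778-190171077 on the minus strand, the Reln entry at chr5:22344656-22344955 on the minus strand, and the Mmrn1 entry at chr6:60944067-60944366 on the plus strand.
Prox1: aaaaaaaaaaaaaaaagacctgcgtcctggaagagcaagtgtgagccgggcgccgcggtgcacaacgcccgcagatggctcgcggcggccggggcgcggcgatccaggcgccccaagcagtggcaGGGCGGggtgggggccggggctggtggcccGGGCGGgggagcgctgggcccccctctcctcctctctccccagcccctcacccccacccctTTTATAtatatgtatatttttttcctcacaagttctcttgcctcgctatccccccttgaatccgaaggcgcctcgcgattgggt
Reln: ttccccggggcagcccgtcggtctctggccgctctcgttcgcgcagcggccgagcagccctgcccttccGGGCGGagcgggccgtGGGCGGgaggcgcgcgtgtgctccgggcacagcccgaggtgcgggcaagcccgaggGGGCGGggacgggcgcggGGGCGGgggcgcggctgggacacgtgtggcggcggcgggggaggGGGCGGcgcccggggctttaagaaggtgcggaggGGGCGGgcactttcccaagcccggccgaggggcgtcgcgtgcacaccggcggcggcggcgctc
Mmrn1: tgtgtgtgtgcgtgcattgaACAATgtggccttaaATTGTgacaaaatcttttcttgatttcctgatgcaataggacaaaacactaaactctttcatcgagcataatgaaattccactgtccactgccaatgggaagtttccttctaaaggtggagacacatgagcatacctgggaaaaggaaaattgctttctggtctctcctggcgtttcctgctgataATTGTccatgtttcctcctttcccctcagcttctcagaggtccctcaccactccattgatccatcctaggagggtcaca
The Reln promoter consisted of G and C at 80.7% of its bases and held 6 GC boxes. The Prox1 promoter, with 64.3% G and C, held 2 GC boxes and 1 TATA box whose first base lay 34 bases before the start, on the opposite strand. A second Prox1 entry on the same strand, at chr1:190169466-190169765, held 1 GC box and 57.3% G and C. The Mmrn1 promoter, with 44.3% G and C, held no GC box and 3 matches to ACAAT. The median over all 32851 mouse promoters of this length was 52.7% G and C, the GC box occurred in 35.66% of them, ACAAT in 31.02% and TATAAA in 13.62%. The GATA, ETS and nuclear receptor motifs occurred in 11.18%, 35.35% and 16.26% of all promoters and had no match in these windows. A match describes letters and shows no binding.

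Some arrays stood apart within their groups. In a principal component analysis of deviations from the group means, PBS 4, PBS 5, DOX 5 and VEGF-B+DOX 5 had loadings of 0.343 to 0.48 on the first component (30.9% of the variance within groups), against -0.264 to -0.015 for the other 11 arrays. DOX 2 and VEGF-B+DOX 3 had the highest loadings on the second component, 0.436 and 0.38. At its other end lay DOX 3 and VEGF-B+DOX 4, about as far out at -0.431 and -0.331, and these were left out only singly. In the order of the series, PBS 4, DOX 5, VEGF-B+DOX 5 and PBS 5 are the last samples, and whether that order follows slides or runs is not stated. The files and labels name no slide or scan date, so a technical batch could not be assigned. Results are given as well without PBS 4, PBS 5, DOX 5 and VEGF-B+DOX 5, and without DOX 2 and VEGF-B+DOX 3. All tests were limma fits over the 24861 probes tested, with p-values adjusted over all of these by the Benjamini-Hochberg method, and differences are log2 values ± the standard error of the fit. The labels describe 5 mice per group. Were any mouse to have given more than 1 array, the p-values would reflect spread among samples rather than mice.

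**Figure D1:**
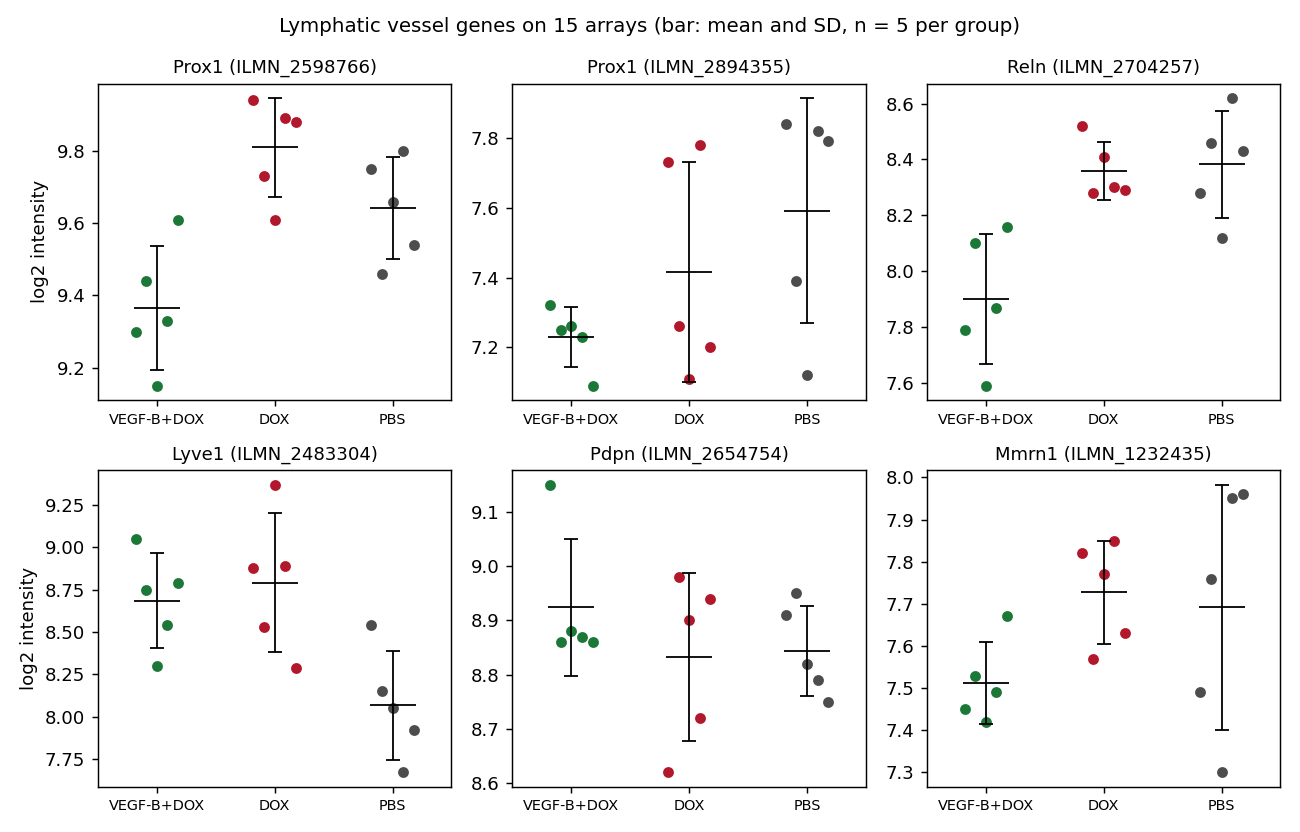
Log2 intensity (y axes, a scale of its own in each panel) of 6 tested probes of the lymphatic vessel genes on each array, by group (VEGF-B+DOX green, DOX red, PBS grey), with bars for the mean and SD (n = 5 arrays per group). Reln in VEGF-B+DOX hearts lay at 7.59 to 8.16, below all 5 DOX arrays, and Lyve1 in PBS hearts had the lowest mean of the groups, 8.07.

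Doxorubicin alone was first set against PBS, to see whether the drug had altered these genes by 20 hours. No member passed the test: 0 of the 7 tested member probes were called, where 0.322% of all tested probes (80 of 24861) were. With each array left out in turn, 2 to 487 probes were called. At an unadjusted p under 0.05 there were 2 member probes and 2559 probes in all. The median difference of the 7 member probes was -0.01, against 0.00 over all tested probes.

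Lyve1, the hyaluronan receptor gene, had the largest difference of the members. Its probe, ILMN_2483304, read 8.88, 8.53, 9.37, 8.89 and 8.29 in DOX hearts, against 8.54, 8.15, 8.05, 7.67 and 7.92 in PBS hearts. The groups overlapped, with 3 of 5 DOX arrays above every PBS array. The means were 8.79 ± 0.41 in DOX and 8.07 ± 0.32 in PBS hearts (SD, n = 5 each), a difference of 0.73 ± 0.18 or 1.65-fold that did not pass (limma, adjusted p = 0.105). This call rested on single arrays: the difference passed without DOX 2 (0.79, adjusted p = 0.0421), without DOX 5 (0.85, adjusted p = 0.0474) and without DOX 2 and VEGF-B+DOX 3 together (0.79, adjusted p = 0.0281). It did not pass with PBS 4, PBS 5, DOX 5 and VEGF-B+DOX 5 left out (0.67, adjusted p = 0.251).

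The bright probe of Prox1, the master regulator gene, differed by 0.17 ± 0.09 (limma, adjusted p = 0.574), with 3 of 5 DOX arrays above every PBS array, whereas its dimmer probe, ILMN_2894355, differed by -0.18 ± 0.14 (adjusted p = 0.739), in the opposite direction. For Reln, Pdpn and Mmrn1 the differences of the brightest probes were -0.02 ± 0.11, -0.01 ± 0.08 and 0.04 ± 0.11 (limma, adjusted p = 0.976, 0.985 and 0.955). None of these 3 exceeded its standard error, and their signs depended on the arrays kept. The dim Reln probe, ILMN_1249750, differed by -0.11 ± 0.05 (limma, adjusted p = 0.485), and it and Lyve1 were the 2 member probes with an unadjusted p under 0.05.

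The comparison of VEGF-B+DOX with DOX hearts asks what the vector changed in hearts that all received the drug. Prox1 and Reln were lower and Lyve1, Pdpn and Mmrn1 did not pass the test. Of the 7 member probes, 2 were called, both lower, where 9.59% of all tested probes were called, 6.42% higher and 3.17% lower. The median difference over the member probes was -0.19, against -0.02 over all tested probes.

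Prox1 fell on its bright probe, ILMN_2598766. It read 9.30, 9.44, 9.15, 9.33 and 9.61 in VEGF-B+DOX hearts, against 9.94, 9.73, 9.61, 9.89 and 9.88 in DOX hearts. Of the 5 VEGF-B+DOX arrays 4 lay below every DOX array, and VEGF-B+DOX 5 equalled the lowest of them. The means were 9.37 ± 0.17 in VEGF-B+DOX and 9.81 ± 0.14 in DOX hearts (SD, n = 5 each), a difference of -0.44 ± 0.09, or 1.36-fold lower (limma, adjusted p = 0.00484). The call held in each of 25 alternative settings, with differences of -0.51 to -0.39, and with both sets of outlying arrays left out (-0.41, adjusted p = 0.0159, without DOX 2 and VEGF-B+DOX 3, and -0.49, adjusted p = 0.00466, without the 4 arrays).

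The dimmer Prox1 probe, ILMN_2894355, did not pass. It read 7.32, 7.25, 7.26, 7.23 and 7.09 in VEGF-B+DOX hearts, against 7.73, 7.26, 7.11, 7.78 and 7.20 in DOX hearts. The groups overlapped and the difference was -0.19 ± 0.14 (limma, adjusted p = 0.502). In PBS hearts it read 7.84, 7.39, 7.12, 7.82 and 7.79, so that over all 15 arrays its values formed an upper group of 5 arrays at 7.73 to 7.84 and a lower one at 7.09 to 7.39, and all VEGF-B+DOX arrays were in the lower one. Which Prox1 transcripts each probe reads is not given in the sources used here.

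Reln, the reelin gene, fell on its bright probe, ILMN_2704257. It read 7.79, 8.10, 7.59, 7.87 and 8.16 in VEGF-B+DOX hearts, against 8.52, 8.28, 8.41, 8.30 and 8.29 in DOX hearts. All 5 VEGF-B+DOX arrays lay below every DOX array, a separation that 2.56% of all tested probes showed in this direction. The means were 7.90 ± 0.23 in VEGF-B+DOX and 8.36 ± 0.10 in DOX hearts (SD, n = 5 each), a difference of -0.46 ± 0.11, or 1.37-fold lower (limma, adjusted p = 0.0102). In 25 alternative settings the call held each time, between -0.54 and -0.38. Without DOX 2 and VEGF-B+DOX 3 the difference was -0.40 (adjusted p = 0.0308), and without the 4 arrays set apart by the first component it was -0.54 (adjusted p = 0.0043).

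The remaining 4 Reln probes were at background. ILMN_1249750 exceeded it on 6 of 15 arrays, 2 of them VEGF-B+DOX, 1 DOX and 3 PBS, with values of 6.84 to 7.06 in VEGF-B+DOX, 6.67 to 6.95 in DOX and 6.87 to 7.07 in PBS hearts. Its differences were 0.09 ± 0.05 between VEGF-B+DOX and DOX and -0.03 ± 0.05 between VEGF-B+DOX and PBS hearts (limma, adjusted p = 0.384 and 0.839), and -0.11 ± 0.05 between DOX and PBS hearts, as given above. ILMN_1235727 exceeded background on 1 PBS array, and ILMN_1220785 and ILMN_1259033 on 0 of 15, so these were not tested.

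Mmrn1, the multimerin gene, was lower by point estimate without passing. Its probe ILMN_1232435 read 7.45, 7.53, 7.42, 7.49 and 7.67 in VEGF-B+DOX hearts, against 7.82, 7.57, 7.77, 7.85 and 7.63 in DOX hearts. The groups overlapped, with 4 of 5 VEGF-B+DOX arrays below every DOX array, and the difference was -0.22 ± 0.11 (limma, adjusted p = 0.26). The second Mmrn1 probe, ILMN_1244497, exceeded background on 0 of 15 arrays.

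Pdpn and Lyve1 showed no detectable difference between VEGF-B+DOX and DOX hearts. Pdpn, read by ILMN_2654754, gave 9.15, 8.86, 8.88, 8.87 and 8.86 in VEGF-B+DOX hearts, against 8.62, 8.98, 8.90, 8.72 and 8.94 in DOX hearts. Apart from VEGF-B+DOX 1, which was above every DOX array, the VEGF-B+DOX arrays lay within the range of DOX, and the difference was 0.09 ± 0.08 (limma, adjusted p = 0.59). Lyve1 read 9.05, 8.75, 8.30, 8.54 and 8.79 in VEGF-B+DOX hearts, within the DOX range given above. Its difference was -0.11 ± 0.18 (limma, adjusted p = 0.808), so a fall of the size seen for Prox1 could not be told from no change at this spread.

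VEGF-B+DOX hearts were also set against PBS hearts, which asks how far the hearts given both vector and drug departed from buffer-injected ones. This comparison shares its VEGF-B+DOX arrays with the previous one. Lyve1 was higher and Reln lower, so 1 of 7 member probes was called in each direction, where 11.4% of all tested probes were called, 6.72% higher and 4.71% lower. The median difference of the member probes was -0.18, against -0.01 over all tested probes.

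Reln was lower by about the same amount as against DOX. It lay at 7.59 to 8.16 in VEGF-B+DOX hearts, against 8.28, 8.46, 8.12, 8.62 and 8.43 in PBS hearts, so 4 of 5 VEGF-B+DOX arrays lay below every PBS array and VEGF-B+DOX 5, at 8.16, lay just above the lowest. The difference was -0.48 ± 0.11, or 1.40-fold lower (limma, adjusted p = 0.00642), and it passed in all 25 alternative settings, from -0.55 to -0.40. The order of the group means was thus VEGF-B+DOX below DOX and PBS, and the means of DOX and PBS hearts, 8.36 ± 0.10 and 8.38 ± 0.19, did not differ beyond their spread.

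Lyve1 was higher in VEGF-B+DOX than in PBS hearts by 0.62 ± 0.18, or 1.54-fold (limma, adjusted p = 0.0333). The means were 8.69 ± 0.28 in VEGF-B+DOX and 8.07 ± 0.32 in PBS hearts (SD, n = 5 each), with 3 of 5 VEGF-B+DOX arrays above every PBS array. Since DOX hearts had a mean of 8.79, the order of the means was PBS, VEGF-B+DOX and DOX, and the upper pair did not differ beyond their spread. The call was not firm. It ended without any 1 of VEGF-B+DOX 1, 2 and 5 and PBS 2, 3, 4 and 5 (0.52 to 0.64, adjusted p from 0.0504 to 0.0998), with a robust variance prior (adjusted p = 0.0589) and without the 4 arrays set apart by the first component (0.41, adjusted p = 0.194).

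Prox1 on its bright probe lay at 9.15 to 9.61 in VEGF-B+DOX hearts, against 9.75, 9.46, 9.66, 9.80 and 9.54 in PBS hearts, and 4 of 5 VEGF-B+DOX arrays lay below every PBS array. The difference of -0.28 ± 0.09 did not pass (limma, adjusted p = 0.0693), although it did without VEGF-B+DOX 5 (-0.34, adjusted p = 0.024), without PBS 2 (-0.32, adjusted p = 0.0465) and with array weights (-0.30, adjusted p = 0.0247). PBS hearts stood between the other groups on this probe, at 9.64 ± 0.14 (SD, n = 5). On the dimmer probe the difference was -0.36 ± 0.14 (limma, adjusted p = 0.118), and it passed without PBS 3 (-0.48, adjusted p = 0.0261).

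Mmrn1 lay at 7.42 to 7.67 in VEGF-B+DOX hearts, against 7.49, 7.76, 7.30, 7.95 and 7.96 in PBS hearts, which were the most spread and enclosed all VEGF-B+DOX arrays, with a difference of -0.18 ± 0.11 (limma, adjusted p = 0.35). Pdpn lay at 8.86 to 9.15 in VEGF-B+DOX hearts, against 8.91, 8.95, 8.82, 8.79 and 8.75 in PBS hearts, and differed by 0.08 ± 0.08 (limma, adjusted p = 0.641). Both genes therefore showed no difference past the threshold in any of the 3 comparisons.

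**Figure D2:**
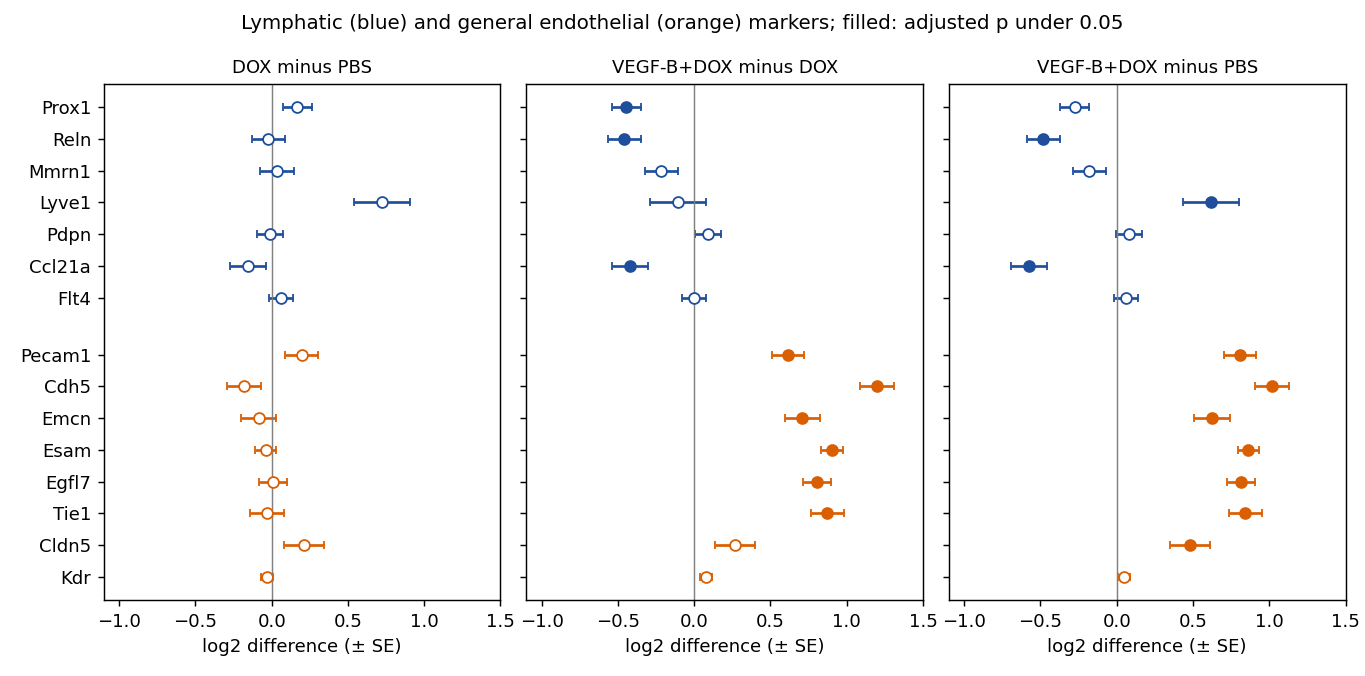
Log2 differences between groups (x axis, ± the standard error of the limma fit, n = 5 arrays per group) for the brightest probe of each lymphatic marker (blue) and each general endothelial marker (orange), with filled points for an adjusted p under 0.05. In VEGF-B+DOX minus DOX hearts Prox1 (-0.44) and Reln (-0.46) lie left of 0 and Cdh5 (1.20) and Esam (0.90) right of it.

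Most of the general endothelial genes counted rose in the same hearts. Of 8 such genes, counted on their brightest probes, 6 rose in VEGF-B+DOX against DOX hearts, 0 fell and 2 did not pass, with a median difference of 0.76, where 6.42% of all tested probes were higher. Those 2 were Kdr and Cldn5, at 0.08 ± 0.04 and 0.27 ± 0.13 (limma, adjusted p = 0.245 and 0.251). Kdr lay near background, above it on 11 of 15 arrays. Cdh5, which encodes the endothelial cadherin of cell junctions, rose by 1.20 ± 0.11 (limma, adjusted p = 1.53e-06), and the adhesion molecule genes Esam and Pecam1 by 0.90 and 0.61. Against PBS 7 rose and 0 fell, with a median of 0.81, where 6.72% of all tested probes were higher. In DOX against PBS hearts 0 of 8 were called by limma, or had an unadjusted p under 0.05, where 2559 of all 24861 tested probes had one. The mean of the 8 genes, relative to the PBS mean, lay at 0.58 to 0.77 in VEGF-B+DOX, -0.10 to 0.16 in DOX and -0.15 to 0.12 in PBS hearts, so the VEGF-B+DOX arrays were separate from the others. The same mean over the 7 lymphatic markers (the 5 members with Flt4 and Ccl21a) lay at -0.29 to -0.01 in VEGF-B+DOX, 0.06 to 0.14 in DOX and -0.14 to 0.07 in PBS hearts. The difference between the lists was not tested. In a sample of whole tissue, fewer cells of a type and less RNA per cell cannot be told apart.

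A wider list of 46 genes of lymphatic development and function was counted on the brightest probe of each gene, with 43 on the array and 36 tested. In VEGF-B+DOX against DOX hearts 15 rose, 1 fell and 20 did not pass, with a median difference of 0.14, where 6.42% of all tested probes were higher and 3.17% lower. Against PBS 17 rose, 2 fell and 17 did not pass, with a median of 0.18, where 6.72% of all tested probes were higher and 4.71% lower. In DOX against PBS hearts 0 of 36 were called by limma, with a median of -0.03. At an unadjusted p under 0.05 there were 9, beside 2559 of all 24861 tested probes. Many of these genes also act in blood vessels, and Tie1 and Kdr stand on the general endothelial list as well, as Flt4 and Ccl21a stand on the list of 7 lymphatic markers.

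The genes of the lymphatic growth factors and their receptor did not pass against DOX. Vegfc, the main lymphatic growth factor gene, differed by 0.03 ± 0.09 in VEGF-B+DOX against DOX hearts (limma, adjusted p = 0.902). Its relative Vegfd differed by 0.08 ± 0.08 (limma, adjusted p = 0.631) and, against PBS, rose by 0.25 ± 0.08 (limma, adjusted p = 0.0429), a call lost in 8 of the 15 fits that left out 1 array. Flt4, the gene of their receptor, differed by 0.00 ± 0.08 against DOX on its brightest probe (limma, adjusted p = 0.992) and by 0.06 ± 0.08 against PBS. Angpt2, the ligand of the TIE2 receptor, rose by 0.33 ± 0.07 against DOX (limma, adjusted p = 0.00578).

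Among the receptors 4 of 7 rose against DOX, where 6.42% of all tested probes did, with a median of 0.41 for the 7. Tie1 rose by 0.87 ± 0.11, Ramp2, the partner protein of the adrenomedullin receptor, by 0.63 ± 0.12, and Tek, which encodes TIE2, by 0.43 ± 0.08 (limma, adjusted p = 3.43e-05, 0.0016 and 0.00221). Nrp2, a co-receptor for VEGF-C, rose by 0.41 ± 0.12 (limma, adjusted p = 0.0428), and this call was lost in 9 of the 15 fits without 1 array and, at adjusted p from 0.0512 to 0.0692, with no filter, no intensity trend, a robust variance prior or only the groups compared. Of its dimmer probes 2 were tested. These, ILMN_3136656 and ILMN_2766737, differed by 0.22 and -0.04 (limma, adjusted p = 0.0139 and 0.615). Both lay near background, above it on 8 and 10 of 15 arrays. ILMN_3136656 read 6.99 to 7.10 in VEGF-B+DOX and 6.75 to 6.95 in DOX hearts. It reached the filter only through its VEGF-B+DOX arrays, so its p is not read as support for the rise.

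Of the transcription factors upstream of Prox1, Sox18 rose and Nr2f2 did not pass the test. Sox18 read 10.22 to 10.49 in VEGF-B+DOX hearts, against 9.25 to 9.79 in DOX hearts, and rose by 0.90 ± 0.10 (limma, adjusted p = 1.25e-05) with no overlap between the groups, a separation that 5.19% of all tested probes showed in this direction. Nr2f2, which encodes the partner of PROX1 in lymphatic endothelium, differed by 0.13 ± 0.14 on its brightest probe (limma, adjusted p = 0.645), and its other 3 probes were too dim to be tested. Hhex rose by 0.41 ± 0.06 (limma, adjusted p = 2.36e-04), and Gata2, needed for lymphatic valves, by 0.31 ± 0.09 (limma, adjusted p = 0.0265), with the Gata2 call lost in 5 of the 15 fits without 1 array.

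Of 8 valve and junction genes 4 rose against DOX, again beside 6.42% of all tested probes. Dchs1, a large cadherin that polarises lymphatic valve cells in mice, rose by 0.94 ± 0.11, Ephb4, the ephrin-B2 receptor, by 0.60 ± 0.08, the flow-sensing channel gene Piezo1 by 0.54 ± 0.07 and the connexin gene Gja4 by 0.49 ± 0.08 (limma, adjusted p = 2.26e-05, 3.26e-05, 9.22e-05 and 5.73e-04). A dimmer Piezo1 probe, ILMN_1212964, differed by -0.09 ± 0.06 (limma, adjusted p = 0.38), so the Piezo1 probes disagreed, and a dimmer Dchs1 probe by 0.11 (adjusted p = 0.168). Efnb2 passed against PBS at 0.34 ± 0.11 (limma, adjusted p = 0.0452) and lost the call in 10 of the 15 fits without 1 array. Among the chemokine, scavenger and other markers, Thy1 rose by 1.33 ± 0.15, Fxyd6 by 0.69 ± 0.10 and Cd9 by 0.50 ± 0.08 against DOX (limma, adjusted p = 8.14e-06, 1.05e-04 and 5.73e-04). The probes of the scavenger receptor gene Stab1 disagreed: the brightest, with a mean over all arrays of 9.52, differed by -0.10 ± 0.09, and the next, with a mean of 9.50, and the dimmest by 0.63 each (limma, adjusted p = 6.6e-05 and 7.72e-05), so the choice of probe alone left Stab1 out of the genes that rose.

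Ccl21a, a mouse gene of the chemokine CCL21, which draws in dendritic cells, fell with Prox1 and Reln. Its probe, ILMN_1213286, averaged 9.51 ± 0.24 in VEGF-B+DOX, 9.93 ± 0.15 in DOX and 10.09 ± 0.20 in PBS hearts (SD, n = 5 each). It differed by -0.42 ± 0.12 against DOX (limma, adjusted p = 0.0277), a call lost without any 1 of VEGF-B+DOX 1 and 3 and DOX 1, 2 and 4, after cyclic loess (-0.38, adjusted p = 0.0526), without DOX 2 and VEGF-B+DOX 3 (-0.28, adjusted p = 0.149) and without the 4 arrays set apart by the first component (-0.44, adjusted p = 0.0537). It differed by -0.57 ± 0.12 against PBS hearts (limma, adjusted p = 0.00313), a call kept in all 15 fits without 1 array but lost without PBS 4, PBS 5, DOX 5 and VEGF-B+DOX 5 (-0.49, adjusted p = 0.0505). The brighter Ccl21c probe, ILMN_2640848, differed by -0.35 ± 0.12 against DOX (limma, adjusted p = 0.0725) and -0.56 ± 0.12 against PBS (limma, adjusted p = 0.00434). The dimmer one, ILMN_2969845, differed by -0.39 ± 0.11 against DOX and -0.55 ± 0.11 against PBS (limma, adjusted p = 0.0323 and 0.0028). Its calls were not followed through the alternative settings. Ccl21a and Ccl21c are near-identical copies, so their probes may read each other.

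Because single members mark other cells too, marker lists of those cells were read beside them. Of 9 macrophage genes, all tested, 0 were called by limma in DOX against PBS and in VEGF-B+DOX against DOX hearts, with medians of 0.16 and 0.19. At an unadjusted p under 0.05 there were 3 and 2 of them, beside 2559 and 5418 of all 24861 tested probes. In VEGF-B+DOX against PBS hearts, where Lyve1 was higher, 3 of 9 were higher and 0 lower, with a median of 0.39, where 6.72% of all tested probes were higher. Cbr2 rose by 0.51 ± 0.11, Folr2 by 0.35 ± 0.09 and F13a1 by 0.55 ± 0.17 (limma, adjusted p = 0.00351, 0.0169 and 0.0436), where a dimmer Folr2 probe differed by 0.23 (adjusted p = 0.123). The F13a1 call was lost in 9 of the 15 fits without 1 array and that of Folr2 without PBS 4, and without PBS 4, PBS 5, DOX 5 and VEGF-B+DOX 5 none of the 3 passed (0.34, 0.19 and 0.39 for Cbr2, Folr2 and F13a1). The mean of the 9 genes relative to PBS lay at 0.17 to 0.57 in VEGF-B+DOX, 0.09 to 0.28 in DOX and -0.23 to 0.20 in PBS hearts. The defining macrophage genes Cd163 and Mrc1 were above background on all 15 arrays on their brightest probes. Timd4 was too, but close to it, with a mean of 7.07 and a lowest PBS value of 6.92 against the limit of 6.914. Their part in the Lyve1 difference was not tested.

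Within groups Lyve1 varied together with these macrophage genes. Across the 15 arrays, taken as deviations from their group means, Lyve1 and the mean of the 9 genes correlated with Pearson's r = 0.78 and Spearman's rho = 0.761 (100000 permutations within groups, p = 0.00023 and 0.00125, adjusted over 15 relations 0.00345 and 0.00937). Without the 2 arrays farthest from the median of Lyve1, r was 0.832. It was 0.787 without DOX 2 and VEGF-B+DOX 3, 0.76 without the 4 arrays set apart by the first component, and 0.728 to 0.818 with any 1 array left out. Among the members, Reln and Mmrn1 correlated in the same way, with r = 0.746 and rho = 0.764 (permutation p = 0.00054 and 0.00112, adjusted 0.00405 and 0.00937), and r was 0.785 without the 2 arrays farthest from the median of Reln. With any 1 array left out it was 0.662 to 0.799, and it was 0.794 and 0.67 without the sets of 2 and 4 arrays. Values of this size were not particular to these relations. Taken as deviations in the same way, Reln had r = 0.874 with Gramd1b, Mmrn1 0.84 with Ulk1 and Lyve1 0.883 with Trim30a, all on no marker list used here. The share of all tested probes that reach such values was not counted.

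**Figure D3:**
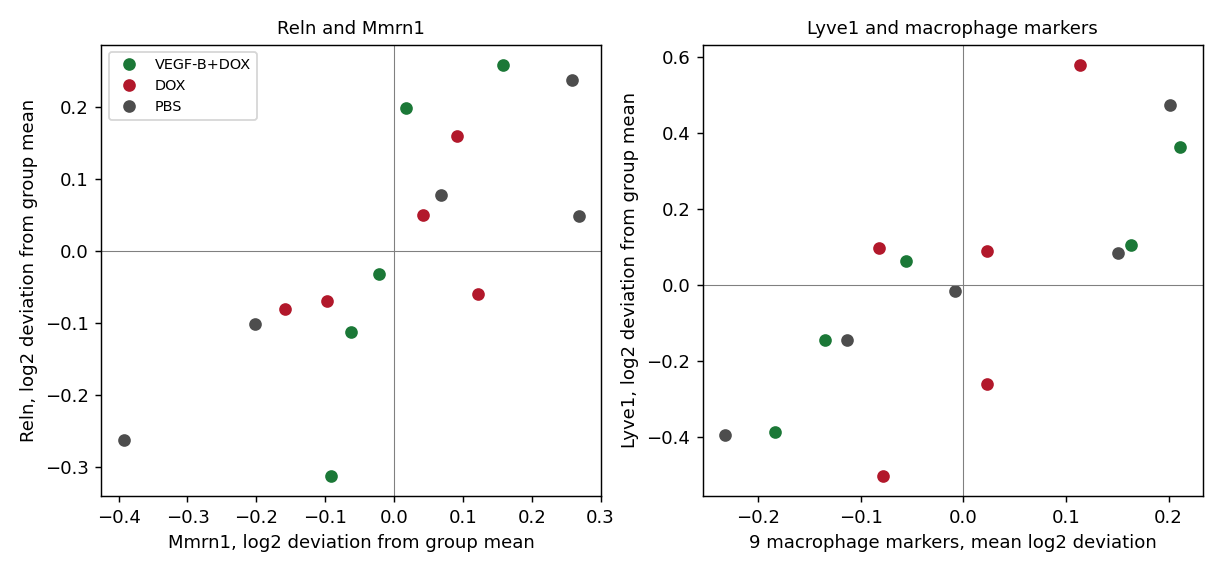
Deviation of each array from its group mean (log2) for Reln against Mmrn1 (left) and for Lyve1 against the mean of 9 macrophage markers (right), with 15 arrays coloured by group (VEGF-B+DOX green, DOX red, PBS grey). Points run from lower left to upper right in both panels, with r = 0.746 and r = 0.78.

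The other 13 relations did not pass after adjustment. Prox1 and Reln, both lower with the vector, correlated within groups with r = 0.494 and rho = 0.468 (permutation p = 0.102 and 0.118, adjusted 0.288 and 0.253), and with r = 0.168 without the 2 arrays farthest from the median of Prox1. Prox1 and the 4 cardiomyocyte genes measured had r = -0.525 and rho = -0.507 (permutation p = 0.0772 and 0.0832, adjusted 0.288 and 0.25). Mmrn1 and the platelet genes had r = 0.101 and rho = 0.004 (permutation p = 0.655 and 0.994, adjusted 0.813 and 0.994). Pdpn and Mmrn1 had r = -0.42 and rho = -0.633 (permutation p = 0.0688 and 0.0103, adjusted 0.288 and 0.0515). Pdpn had r = 0.267 and rho = 0.156 with the fibroblast genes and r = 0.493 and rho = 0.372 with the mesothelial genes (permutation p = 0.369, 0.606, 0.115 and 0.249, adjusted 0.615, 0.90, 0.288 and 0.467). The mesothelial genes tested, and the platelet genes Gp9, Itga2b and Treml1, lay near background, which limits these relations.

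Lists of the other cells that can express the members, and of fast-twitch muscle, are set beside the 9.59% of all tested probes called in VEGF-B+DOX against DOX hearts and the 11.4% called against PBS. Of 4 cardiomyocyte genes and 5 platelet genes, 0 were called by limma in any of the 3 comparisons. In VEGF-B+DOX against PBS hearts 1 platelet gene had an unadjusted p under 0.05, where 5965 of all 24861 tested probes had one. The platelet genes Gp9, Itga2b and Treml1 lay near background, with means of 6.97, 7.06 and 7.09, so changes in them could be missed. Of 6 mesothelial genes 2 could be tested, and 0 of these were called, or had an unadjusted p under 0.05, in any comparison. These, Krt8 and Upk3b, lay near background, with means of 6.92 and 7.06, and exceeded it on 9 and 12 of 15 arrays. Changes in them could therefore be missed. Msln, a defining gene of mesothelium, did not exceed background on any array. Among 5 fibroblast genes Col1a1, which encodes a chain of type I collagen, was higher in VEGF-B+DOX than in DOX hearts (0.86 ± 0.16, limma, adjusted p = 0.00144) and than in PBS hearts (0.59 ± 0.16, adjusted p = 0.0207, lost without VEGF-B+DOX 1, VEGF-B+DOX 3 or PBS 3), and Pdgfra was lower than in PBS hearts (-0.37, adjusted p = 0.00608), where its dimmer probe differed by -0.10 (adjusted p = 0.34). Among 3 fast-twitch contractile genes Tnni2 was lower in VEGF-B+DOX hearts (-0.28 in both comparisons, limma, adjusted p = 0.0276 and 0.0262). Neurons also make reelin. Among 3 tested genes of neurons and peripheral glia, Tubb3 was lower against PBS (-0.17, limma, adjusted p = 0.0272). Uchl1 and Sox10 differed by 0.04 and -0.23 (limma, adjusted p = 0.777 and 0.101). Tubb3 and the fast-twitch gene Tnnt3 lay near background, above it on 11 and 5 of 15 arrays. The Tnni2 calls against DOX and PBS were lost in 4 and 5 of the 15 fits without 1 array, and the Tubb3 call in 3. The Tnni2 call against DOX was also lost after cyclic loess (-0.26, adjusted p = 0.0509) and without DOX 2 and VEGF-B+DOX 3 (-0.30, adjusted p = 0.0575).

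The genes whose levels ran most closely with each member over the 15 arrays were Fahd2a, Rwdd1 and Tnik for Prox1 (Pearson's r = 0.92, 0.918 and 0.89), and Cbx7, Gramd1b and Ggct for Reln (r = 0.946, 0.938 and 0.924). For Lyve1 they were Snx11, Trim30a and Exoc4 (r = 0.90, 0.895 and 0.891), for Mmrn1 Crbn, Zranb3 and Ulk1 (r = 0.856, 0.847 and 0.844) and for Pdpn Lrrc55, Coro1a and Pik3cg (r = 0.825, 0.801 and 0.77). None of these 15 is on a list of lymphatic or cell type markers used here. The values are the highest of all tested probes with a proper symbol and serve as a description, since the 15 points share their groups and their array.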

How the data were processed

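The authors deposited log2 intensities, as judged from their range, of 45281 probes on 15 arrays. They were already quantile-normalized: sorted values of any pair of arrays differed by at most 0.01 and every median was 6.92. TRIsure and NucleoSpin RNA II were used for RNA and an Ambion kit for biotin-labelled cRNA, per the labels' protocols. The software is not given in the sources used here. Another table has 15 signal columns whose names match no label, and it was left out.

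Symbols came from the platform table, in which 34885 probes carry 1 symbol, 18 several and 10378 none. The background mode was 6.80 with an SD of 0.0693 by reflection of the values below it. Probes above 6.914, its 95% limit, on at least 5 arrays were tested (24861). The limma package (3.58.1, R 4.3.3) fitted 1 mean per group to all 15 arrays, using an intensity trend and leaving 12 residual degrees of freedom. The threshold was an adjusted p of 0.05. The number of arrays limits the precision. Figures used Python 3.11.15 and matplotlib 3.10.9. The procedure was tested on simulated data with independent noise for each probe. These lacked the components that the real arrays share, so that test cannot show how such components affect the calls.

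The members, lists and tests were chosen with earlier results of these data known. All member probes and the 3 genes most alike to each member are named. List genes past the threshold, or among the 2 brightest of a cell type list, could be named, and not all are. Flt4, Kdr, Vegfc, Nr2f2, Stab1, Cd163, Timd4, Msln and the Ccl21c probes were named for their role, after their values had been seen. Gp9, Itga2b, Treml1 and Tnnt3 were named for their signals near background. Alternatives changed the filter, variance prior, array weights, samples fitted, replicate block, normalization and arrays.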

Additional observations from a re-analysis of the deposited data

Results flagged for a closer look

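Pdpn on ILMN_2654754 read 9.15 in VEGF-B+DOX 1, while the other 4 VEGF-B+DOX arrays lay at 8.86 to 8.88. The gap to the nearest of them took 0.931 of the range of the group, above Dixon's 95% critical value of 0.71 for 5 arrays. It was 1 of 21 groups of values examined, and chance flags about 1 in 20.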

How the results depend on the processing

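Across 25 alternative settings each, the calls of Prox1 (bright probe) against DOX and of Reln against DOX and PBS held every time, and the number of member probes called in VEGF-B+DOX against DOX hearts was always 2. In VEGF-B+DOX against PBS hearts it was 1 with a robust variance prior and 1 without PBS 4, PBS 5, DOX 5 and VEGF-B+DOX 5, and 1 to 2 with each array left out in turn, as Lyve1 was lost. In DOX against PBS hearts it was 1 without DOX 2 and VEGF-B+DOX 3, and 0 to 1 with each array left out. Over all probes, 80 calls in DOX against PBS hearts became 53 without an intensity trend, 201 with array weights, 677 without DOX 2 and VEGF-B+DOX 3, 1 without the 4 arrays named above, and 2 to 487 with each array left out. Calls in VEGF-B+DOX against DOX hearts numbered 3601 with array weights and 1627 to 2597 with each array left out, and those against PBS 2008 to 2946. Some differences that passed no test changed sign. In DOX against PBS hearts, Reln took values of 0.0029 with array weights and 0.0908 without the 4 arrays, and -0.0875 to 0.0375 with each array left out. The dimmer Prox1 probe reached 0.02 without the 4 arrays. With each array left out, Pdpn ranged from -0.049 to 0.041 (above 0 without DOX 1, DOX 4, PBS 1 or PBS 2) and Mmrn1 from -0.062 to 0.103 (below 0 without PBS 1 or PBS 3). In VEGF-B+DOX against DOX hearts Lyve1 ranged from -0.2315 to 0.0385 (above 0 without DOX 3), and against PBS the dim Reln probe reached 0.0065 without PBS 3. The cause was not tested. The other lymphatic genes higher numbered 13 to 17 against DOX and 13 to 18 against PBS in these settings, a count added after the data had been seen. The labels do not say whether replicate numbers pair the samples. Deviations of arrays with the same number correlated at -0.173 to 0.409 between DOX and PBS, -0.248 to 0.631 between VEGF-B+DOX and DOX and -0.412 to 0.32 between VEGF-B+DOX and PBS. Number 5 gave 0.409, 0.631 and 0.32 and number 1 gave 0.148, 0.334 and 0.254, whereas numbers 2, 3 and 4 had mixed signs. These values cannot decide whether samples were paired. With a replicate block 81, 2595 and 3135 probes were called in DOX against PBS, VEGF-B+DOX against DOX and VEGF-B+DOX against PBS, with 0, 2 and 3 member probes, the added one being the dimmer Prox1 probe (-0.36, adjusted p = 0.0409). Cyclic loess moved array medians by at most 0.0108. Signals near background limit Kdr, Timd4, Tubb3, 4 Reln probes and the second Mmrn1 probe. They also limit Krt8, Upk3b, Gp9, Itga2b, Treml1, Tnnt3 and the dimmer tested Nrp2 probes, among others.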
